A study of Homo sapiens with 4 samples.

Results

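HepG2 cells, a human line from a hepatocellular carcinoma, still make many proteins of the hepatocyte. To see which liver functions moved early under melatonin, the mRNA-seq library of HepG2 cells treated with melatonin at 1 mM for 24 h was compared with that of HepG2 cells treated with DMSO, the solvent, for 24 h. Both were labelled wild type and were grown in MEM with 10% fetal bovine serum. These are 2 of the 4 libraries of the series, and the other pair is melatonin at 1 mM and DMSO at 48 h. Each condition has 1 library, so every difference below is one between libraries, with no replicate to measure how cultures vary. Of 58302 genes listed, 10480 were tested, which are the protein-coding genes of 200 bp or more with at least 1 FPKM in either 24 h library. FPKM is the number of fragments per kilobase of gene, scaled to the size of the library, so levels can be compared between genes.

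Hepatocytes secrete most plasma proteins, including albumin, the complement and clotting factors and the apolipoproteins, and they make bile acids and clear hormones and drugs through cytochrome P450 and conjugating enzymes. Melatonin is a tryptophan-derived hormone that the liver itself clears, mainly through the P450 enzyme CYP1A2 and sulfation. When oxygen is short, hypoxia-inducible factors switch on genes of glycolysis, glucose uptake and erythropoietin, many of which carry the core sequence ACGTG in their control regions.

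The 24 h libraries held 21616676 reads on genes with DMSO and 22850046 with melatonin, as recovered from the FPKM values, and those at 48 h held 23086025 and 22820651. The median tested gene had 637 reads with DMSO and 740 with melatonin. Transcripts of the mitochondrial genome took 20.0% of reads in the DMSO and 16.6% in the melatonin library at 24 h, and 9.77% and 11.9% at 48 h. Of 11 hepatocyte markers, all 11 were tested, with ALB at 3109 FPKM with DMSO and 3343 with melatonin and AFP at 1131 and 985. None of 6 endothelial markers was tested, nor were 7 of 8 fibroblast markers and 5 of 7 immune markers. The immune list includes LYZ, at 729 and 861 FPKM, while PTPRC, which all blood leukocytes carry, had at most 0.00589 FPKM.

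Few genes differed at 24 h. By 2-fold or more on the log2(FPKM + 1) scale, 20 of 10480 genes (0.191%) were higher with melatonin and 46 (0.439%) were lower. By 1.5-fold or more, 201 (1.92%) were higher and 287 (2.74%) lower. The median log2 fold change of all tested genes was 0.04, their SD was 0.28, and 68.9% lay within 0.25 of 0. Rescaling the values to TPM, in which every library sums to the same total, moved that median to 0.20 and the split to 85 higher and 71 lower. At 48 h, a pair that shares no library with the 24 h pair, 109 of 10582 genes (1.03%) were higher and 144 (1.36%) lower by 2-fold. With DMSO alone, 174 of 10539 genes (1.65%) were higher and 293 (2.78%) lower at 48 h than at 24 h.

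The 46 lower genes had a median of 7.43 FPKM with DMSO and 2.40 with melatonin, and the 20 higher genes 1.26 and 4.90. For all 66 the 95% interval of the ratio of reads left out 1, which covers counting error only. The 66 were picked by their fold in the same reads, which favours such intervals, so they are no separate support for the calls. Below, "rose" and "fell" are used of genes past 2-fold or, where said, past 1.5-fold. Folds given with an interval are plain ratios of FPKM, and log2 fold changes carry the added 1, which makes them smaller for low genes. At the threshold, LFNG (log2 fold change 1.01) and ANKRD1 (-1.02) were the last genes inside, and IFI27L2 (0.997) and C1orf186 (-0.997) the first outside.

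**Figure D1:**
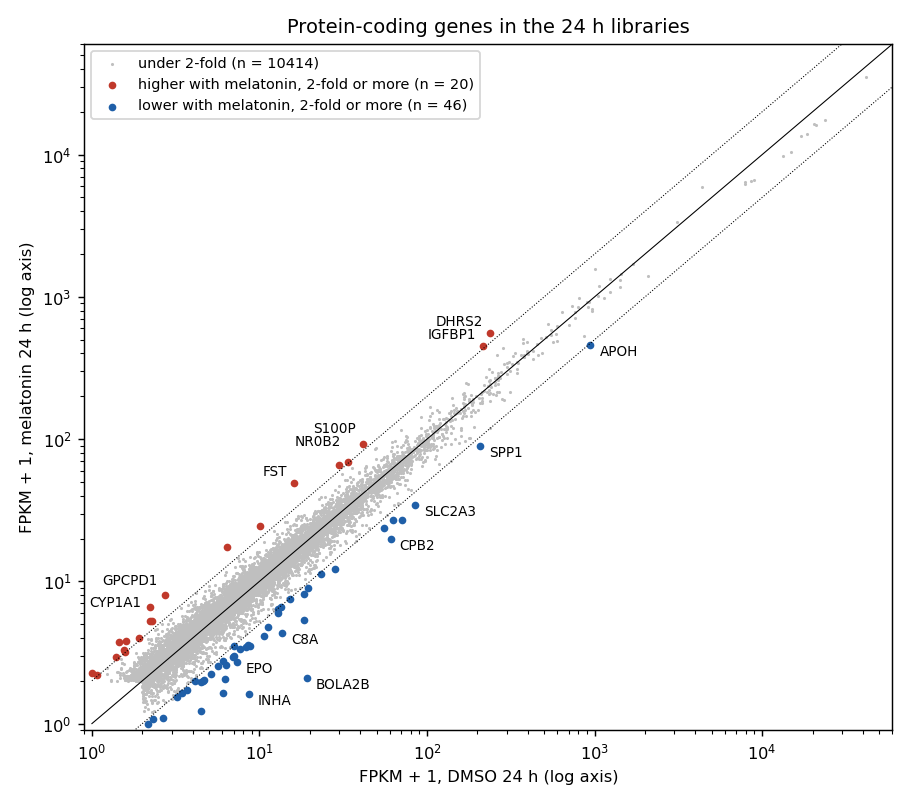
FPKM + 1 of each of the 10480 tested genes with DMSO (x axis) and melatonin (y axis) at 24 h, both on log axes, with dotted lines at 2-fold. Most genes follow the diagonal, 20 lie past the upper line and 46 past the lower line, and APOH, SPP1, DHRS2 and IGFBP1 are the most highly expressed of those labelled.

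Proteins that the liver secretes into plasma were among the falls. The lists of secreted, complement, clotting, apolipoprotein and acute-phase genes held 126 tested genes, 1.20% of all, of which 11 (8.73%) fell and 1 (0.794%) rose by 2-fold, beside 0.439% and 0.191% of all tested genes. The lists were written by hand with earlier results of these data known, so these shares describe the lists and test nothing. Among 42 tested hepatocyte secreted proteins, 7 fell and 1 rose by 2-fold, 15 fell and 2 rose by 1.5-fold, and the median log2 fold change was -0.32 beside 0.04 for all tested genes. In TPM these medians were -0.14 and 0.20. The summed level of all 55 genes of the list, tested or not, was 12452 FPKM with DMSO and 12104 with melatonin, with the 3 most abundant members short of 1.5-fold. ALB stood at 3109 and 3343 FPKM, SERPINA1, the main plasma inhibitor of elastase, at 1702 and 1693, and AHSG, fetuin-A, at 1424 and 1181.

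The secreted proteins that fell had different tasks in plasma. APOH, beta-2-glycoprotein I, which binds phospholipids, was the most highly expressed gene past 2-fold, with 945 FPKM (DMSO) and 457 (melatonin) at 24 h, beside 919 and 229 at 48 h. Its fold at 24 h was 2.07 (95% interval 2.02 to 2.11) lower with melatonin. SPP1, osteopontin, went from 208 to 88.9 FPKM, a 2.34-fold fall (2.25 to 2.42), and stood at 265 and 84.1 at 48 h. Both genes were lower with melatonin at both times. HPX, hemopexin, which binds free heme, went from 6.09 to 2.01 FPKM, and ANG, the ribonuclease angiogenin, from 17.6 to 7.21. At 48 h HPX stood at 2.93 with DMSO and 0.322 with melatonin, and ANG at 27.9 and 9.76. The largest fall of the list was that of ODAM, a secreted protein best known from enamel epithelium, from 17.3 to 4.39 FPKM (16 and 2.31 at 48 h).

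The acute-phase proteins, which the liver makes more of in inflammation, counted 1 of 25 lower by 2-fold, 7 lower and 1 higher by 1.5-fold, with a median of -0.14, which turned to 0.04 in TPM. CP, ceruloplasmin, the copper-carrying ferroxidase, stood just short of 2-fold at 56.9 and 28.4 FPKM, and ORM1, orosomucoid, at 168 and 96.4. HAMP, hepcidin, which lowers iron release into plasma, went the other way, from 1.97 to 4.42 FPKM, on 109 and 270 reads.

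Complement lyses microbes through a pore built from C5b to C9. Of 38 complement genes, 22 were tested, 1 fell by 2-fold, 7 by 1.5-fold and none rose, with a median of -0.23 (-0.04 in TPM). C8A, the alpha chain of the pore component C8, went from 12.7 FPKM (549 reads) to 3.35 (160 reads), a 3.79-fold fall (3.17 to 4.55), and stood at 10.5 and 1.72 at 48 h. Its partner chain C8B went from 2.91 to 1.34 FPKM, with 3.88 and 0.264 at 48 h. CFI, the protease that inactivates C3b, went from 66.5 to 34.5 FPKM and stood at 68.3 and 16.4 at 48 h. Both the pore chains and this inhibitor were therefore lower with melatonin, past 1.5-fold at 24 h and past 2-fold at 48 h. C3, the central component and the most abundant of the list, stood at 970 and 818 FPKM.

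Of 27 tested clotting and fibrinolysis genes 2 fell by 2-fold, 6 by 1.5-fold and none rose, with a median of -0.14 (-0.06 in TPM). CPB2 encodes TAFI, a carboxypeptidase that protects clots from lysis, and it went from 59.6 FPKM in the DMSO to 18.9 in the melatonin library at 24 h, beside 74.7 and 11.2 at 48 h. That was a 3.15-fold fall (2.89 to 3.44) at 24 h, and the log2 fold changes were -1.61 and -2.63. The other fall was that of APOH. SERPIND1, heparin cofactor II, stood at 179 and 101.0 FPKM, past 1.5-fold. The fibrinogen chain FGG stood at 325 and 384 FPKM, so clotting genes did not move as a block.

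The apolipoproteins and the genes that load them counted 27 tested members, of which 3 fell by 2-fold, with 9 lower and 1 higher by 1.5-fold and a median of -0.36 (-0.21 in TPM). APOL1, the trypanosome-lytic apolipoprotein, fell from 70.1 to 25.9 FPKM, and APOF, which inhibits cholesteryl ester transfer, from 5.02 to 1.75. The level of APOL1 with DMSO was itself lower at 48 h, at 17.3 FPKM beside 13.1 with melatonin, whereas APOF still stood at 3.51 and 1.18. APOA5, a regulator of plasma triglycerides, and MTTP, the transfer protein that lipidates APOB, stood at 29.4 and 17.1 and at 25.8 and 15.2 FPKM. The 1 member past 1.5-fold upwards was APOA2, a main protein of HDL, at 999.9 FPKM with DMSO and 1561 with melatonin, and at 48 h at 1629.8 and 2853.5.

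The 2 most highly expressed secreted proteins that fell, APOH and SPP1, are shown with the 250 bases before their RefSeq start (GRCh38.p14), read 5′ to 3′ on the gene's strand. Capitals mark the letters GTTAAT or its complement ATTAAC, part of the site of the liver factor HNF1.

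APOH, chr17:66229416-66229665, minus strand: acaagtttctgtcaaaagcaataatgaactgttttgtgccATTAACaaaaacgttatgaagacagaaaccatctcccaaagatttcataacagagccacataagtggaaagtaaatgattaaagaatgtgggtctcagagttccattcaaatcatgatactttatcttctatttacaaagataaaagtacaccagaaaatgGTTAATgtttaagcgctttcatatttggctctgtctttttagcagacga

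SPP1, chr4:87975464-87975713, plus strand: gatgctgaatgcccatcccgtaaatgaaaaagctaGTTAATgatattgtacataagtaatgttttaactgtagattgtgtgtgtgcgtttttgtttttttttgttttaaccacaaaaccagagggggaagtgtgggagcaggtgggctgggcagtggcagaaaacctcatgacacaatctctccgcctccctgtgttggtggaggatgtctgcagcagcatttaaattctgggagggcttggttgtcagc

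The matches begin 210 and 49 bases before the APOH start and 215 bases before that of SPP1, counting the base next to the start as 1. RefSeq windows were found for 36 of the 46 lower genes, of which 9 (25%) held GTTAAT on either strand, for 12 of the 20 higher genes, of which 0 did, and for 34 of the 42 secreted proteins, of which 11 (32.4%) did. Over 8634 tested genes with a window the share was 5.12%, and over all 27305 genes in the table it was 7.5%. These are matches of letters and say nothing of binding.

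Genes of hypoxia and glycolysis were also among the falls. Of 25 tested hypoxia genes 5 fell by 2-fold and none rose, 10 fell and 1 rose by 1.5-fold, 20 lay below 0, and the median log2 fold change was -0.35 (-0.20 in TPM). Of 29 tested genes of glycolysis and gluconeogenesis 3 fell and 1 rose by 2-fold, and 11 fell and 3 rose by 1.5-fold, with a median of -0.29 (-0.10 in TPM). The lists share members and hold 49 tested genes, of which 5 (10.2%) fell and 1 (2.04%) rose by 2-fold. Among all tested genes 0.439% fell and 0.191% rose by 2-fold, 2.74% and 1.92% did by 1.5-fold, and 57.9% lay above 0. These lists too were written with earlier results of these data known. EPO is also among the secreted proteins.

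EPO, erythropoietin, the hormone of red cell formation that the liver makes when oxygen is low, had 6.31 FPKM with DMSO and 1.71 with melatonin at 24 h, on 154 and 46 reads, a 3.70-fold fall (2.65 to 5.26). At 48 h it had 0.891 and 0.847. SLC2A3, the high-affinity glucose transporter GLUT3, went from 83.8 to 33.3 FPKM, a 2.51-fold fall (2.42 to 2.61), and stood at 25.9 and 16.6 at 48 h. PFKFB3 and PFKFB4 make and break down fructose-2,6-bisphosphate, the strongest activator of glycolysis. PFKFB3 went from 7.80 to 2.52 FPKM and PFKFB4 from 10.3 to 3.80, and at 48 h they stood at 0.798 and 1.51 and at 1.01 and 1.35. For these 4 genes the DMSO library at 24 h was the highest of the 4 libraries, and the DMSO level at 48 h lay below the melatonin level at 24 h.

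The enzymes of lower glycolysis also stood highest in the DMSO library at 24 h. LDHA, which turns pyruvate into lactate, went from 237 FPKM in the DMSO to 119 in the melatonin library at 24 h, beside 76.9 and 64.5 at 48 h, a fold of 1.99 (1.95 to 2.03) at 24 h, just short of the 2-fold threshold. ENO1, enolase, had 868 and 529 FPKM and at 48 h 327 and 296, and PGK1, phosphoglycerate kinase, had 75.5 and 43.3 and at 48 h 33.1 and 28.9. PDK1, a kinase that inhibits pyruvate dehydrogenase, and BNIP3, a mitophagy receptor, went from 5.22 to 2.38 and from 36.8 to 18.2 FPKM, past 1.5-fold. In all of these both 48 h libraries stood below both 24 h libraries.

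CA9, carbonic anhydrase IX, which a hypoxic cell puts on its surface to export acid, kept its difference: 3.59 and 1.00 FPKM at 24 h on 110 and 34 reads, and 3.69 and 0.674 at 48 h. The exons of CA9 share 35.7% of their bases with ARHGEF39, so part of its reads may belong to that gene. Other hypoxia genes had no such fall. VEGFA, the main growth factor of blood vessels, stood at 13.3 and 13.9 FPKM, HIF1A, the oxygen-regulated subunit itself, at 28.2 and 27.8, and SLC2A1, the glucose transporter GLUT1, was higher, at 284 and 437 FPKM at 24 h and 305 and 524 at 48 h.

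The promoters of CA9, PFKFB3 and PLIN2, a lipid droplet protein described below, are shown because they hold ACGTG, the core of the hypoxia response element, which capitals mark on either strand.

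CA9, chr9:35673678-35673927, plus strand: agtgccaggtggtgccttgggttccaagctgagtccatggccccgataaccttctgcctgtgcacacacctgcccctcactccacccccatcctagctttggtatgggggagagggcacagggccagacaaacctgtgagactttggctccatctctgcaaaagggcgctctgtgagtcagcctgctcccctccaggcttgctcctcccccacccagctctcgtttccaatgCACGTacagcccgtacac

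PFKFB3, chr10:6202682-6202931, plus strand: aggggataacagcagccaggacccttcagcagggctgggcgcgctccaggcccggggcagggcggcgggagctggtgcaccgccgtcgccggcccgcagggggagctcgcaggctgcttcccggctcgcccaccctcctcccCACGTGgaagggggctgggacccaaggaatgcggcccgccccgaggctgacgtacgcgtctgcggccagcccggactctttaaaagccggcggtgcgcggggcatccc

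PLIN2, chr9:19127493-19127742, minus strand: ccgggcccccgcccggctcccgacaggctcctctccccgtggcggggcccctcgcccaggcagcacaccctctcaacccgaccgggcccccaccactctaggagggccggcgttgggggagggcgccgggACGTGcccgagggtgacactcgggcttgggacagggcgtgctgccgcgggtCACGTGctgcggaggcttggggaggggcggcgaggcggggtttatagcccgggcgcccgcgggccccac

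The capitals start 18 bases before the CA9 start and 108 bases before that of PFKFB3, where the palindrome CACGTG counts on both strands. In PLIN2 they start 120 bases before the start and, again as CACGTG, 69 bases before it. PFKFB3 has 2 windows in the table, of which 1, chosen by its number of matches, is shown. PLIN2 is not in the hypoxia list. Of the other hypoxia genes that fell, EPO and PFKFB4 held no ACGTG in their windows, and no window was found for SLC2A3. Of 21 tested hypoxia genes with a window, 12 (57.1%) held ACGTG, beside 29.4% of all tested genes. Of the 36 lower genes 9 (25%) did.

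**Figure D2:**
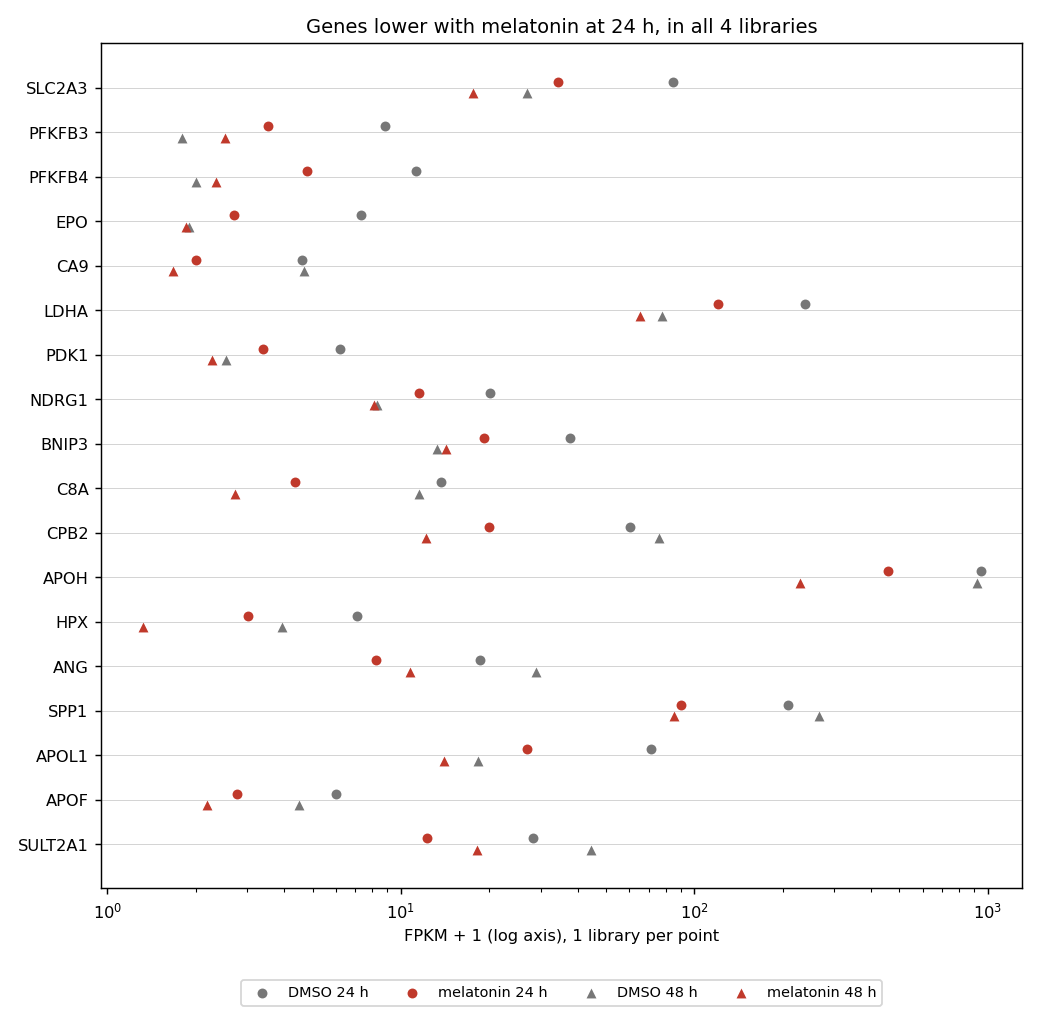
FPKM + 1 (log axis) in each of the 4 libraries, 1 point per library, for 9 genes of hypoxia and glycolysis (upper rows) and 9 of plasma proteins and steroid sulfation (lower rows). In the upper rows other than CA9 the DMSO 24 h point stands alone on the right and both 48 h points lie left of it, while in most of the lower rows both DMSO points lie right of both melatonin points.

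Of 46 cytochrome P450 genes 14 were tested, 10 lay above 0 (57.9% of all tested genes did), 1 rose by 2-fold and 2 by 1.5-fold, none fell, and the median was 0.38 (0.25 in TPM). The rise was that of CYP1A1, the enzyme that the aryl hydrocarbon receptor AHR switches on and that hydroxylates aromatic compounds. It had 1.24 FPKM with DMSO and 5.55 with melatonin at 24 h, on 78 and 387 reads, and 4.18 and 12.6 FPKM at 48 h. The fold at 24 h was 4.49 (3.51 to 5.80), and the melatonin library was the higher at both times. CYP1A2, which clears melatonin, had 0 reads in both 24 h libraries, below the floor of 3 reads. CYP4F12 was the other gene past 1.5-fold, at 4.23 and 6.99 FPKM.

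The promoter of CYP1A1 is shown with GCGTG, the core that AHR and its partner ARNT bind, in capitals.

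CYP1A1, chr15:74725529-74725778, minus strand: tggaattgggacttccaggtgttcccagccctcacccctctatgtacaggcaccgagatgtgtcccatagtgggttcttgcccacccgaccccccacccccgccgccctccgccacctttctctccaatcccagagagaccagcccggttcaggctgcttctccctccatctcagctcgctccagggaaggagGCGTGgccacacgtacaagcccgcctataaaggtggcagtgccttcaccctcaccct

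The match starts 57 bases before the start. GCGTG is common, and stood in 5 of the 12 windows of higher genes (41.7%), 10 of the 36 of lower genes (27.8%) and 54.3% of those of all tested genes. Of 7 tested genes of the AHR pathway CYP1A1 alone passed 1.5-fold. AHR itself stood at 5.35 and 8.03 FPKM, and NQO1, a quinone reductase, at 166 and 153.

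The 2 membrane receptors of melatonin were next to absent from the reads. MTNR1A had 0 reads in both 24 h libraries, and MTNR1B had 1 read with DMSO and 0 with melatonin. Of 14 genes of melatonin receptors and metabolism 5 were tested and none passed 1.5-fold. SULT1A1, a sulfotransferase for small phenols, stood at 10.2 and 12.5 FPKM, and CALR, calreticulin, at 707 and 635.

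In bile acid metabolism a nuclear receptor and its target stood in opposite directions. NR0B2, the repressor SHP, rose from 32.7 to 67.7 FPKM, a fold of 2.07 (1.89 to 2.27), and stood at 49.1 and 76.4 at 48 h. NR1H4, the bile acid receptor FXR, for which SHP is a textbook target, went from 12.4 to 5.84 FPKM, past 1.5-fold, and stood at 14.3 and 4.33 at 48 h. AKR1D1, which reduces the ring of bile acid precursors, fell from 6.09 to 2.49 FPKM, and BAAT, which joins bile acids to amino acids, stood at 1.08 and 0.305. Of the 18 tested members, 1 rose and 1 fell by 2-fold and 13 lay below 0, with a median of -0.18. Of all tested genes 57.9% lay above 0. CYP7A1, the rate-limiting enzyme of bile acid synthesis, was not tested, with 10 reads and 2.

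Enzymes of steroid conjugation were among the falls. SULT2A1, which sulfates bile acids and steroids, went from 27.1 to 11.3 FPKM at 24 h, beside 43.3 and 17.1 at 48 h, a 2.40-fold fall (2.14 to 2.68) at 24 h. Of the 22 tested conjugating enzymes it alone passed 2-fold, 4 fell and none rose by 1.5-fold, and the median was -0.04. UGT2B10, UGT2B7 and UGT2A3, which attach glucuronic acid to steroids, stood at 138 and 68.8, at 12.3 and 6.77, and at 32.1 and 20.9 FPKM. ADH6, an alcohol dehydrogenase of liver, and AGXT, which clears glyoxylate, also fell, from 18.5 to 8.0 and from 4.64 to 1.54 FPKM. In 33 tested genes of the urea cycle and amino acid breakdown AGXT was the 1 fall by 2-fold, and the median was -0.01.

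In lipid metabolism the clearest fall was in PLIN2, the protein that coats lipid droplets. It went from 54.5 to 22.7 FPKM at 24 h, beside 50.1 and 19 at 48 h, a 2.40-fold fall (2.28 to 2.52) at 24 h, and both DMSO libraries stood above both melatonin libraries. FABP1, the fatty acid carrier of liver, stood at 79.4 and 42.9 FPKM, and PPARGC1A, a coactivator of fasting genes, at 2.41 and 5.54. Of 26 tested genes of fatty acid oxidation, ketogenesis and PPARA 1 fell by 2-fold, with 4 lower and 1 higher by 1.5-fold. Cholesterol synthesis had 22 of 28 tested members above 0, beside 57.9% of all tested genes, and a median of 0.19 (0.15 to 0.37 over the settings tried). Only TM7SF2 (22.4 and 38.4 FPKM) and MSMO1 (27.4 and 43.0), enzymes late in the pathway, passed 1.5-fold. At 48 h the median of the list was 0.51.

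The largest rise on the log2 scale was that of FST, follistatin, a secreted protein that traps activin. It had 15.2 FPKM with DMSO and 48.0 with melatonin at 24 h, on 827 and 2888 reads, and 74.0 and 126 FPKM at 48 h, a 3.16-fold rise (2.92 to 3.42) at 24 h. INHA, the inhibin alpha chain, which also opposes activin, was the second-largest fall, from 7.61 to 0.619 FPKM on 245 and 22 reads, and stood at 2.26 and 0.771 at 48 h. Its fold at 24 h was 12.3 (7.94 to 20.0). These activin antagonists thus stood in opposite directions.

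The genes that rose included some of the fasting response. IGFBP1, the insulin-repressed IGF binding protein of liver, rose from 216 to 450.1 FPKM, a fold of 2.08 (2.02 to 2.14), with 811 and 1557 FPKM at 48 h. C10orf10, a fasting-induced gene of the FOXO factors, rose from 5.43 to 16.3 FPKM, with 19.1 and 67.5 at 48 h. Its exons share 23.3% of their bases with RASSF4. These were the 2 of 22 tested FOXO-linked genes past 2-fold, no member fell, 16 lay above 0 beside 57.9% of all tested genes, and the median was 0.20 (0.39 in TPM). At 48 h the median of the list was -0.07, with 10 of the 22 above 0. IGFBP1 and C10orf10 were also higher at 48 h than at 24 h with DMSO alone.

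DHRS2, a short-chain dehydrogenase, was the most highly expressed gene that rose, from 237 to 558 FPKM (147 and 553 at 48 h), with a fold of 2.36 (2.33 to 2.39). GPCPD1, which splits glycerophosphocholine, rose from 1.73 to 6.97 FPKM, a fold of 4.03 (3.5 to 4.66), and stood at 0.763 and 4.78 at 48 h. For DHRS2 and GPCPD1 both melatonin libraries stood above both DMSO libraries.

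Other rises were those of the transcription factor MIXL1, from 9.10 to 23.6 FPKM (1.69 and 9.32 at 48 h), the arrestin-like ARRDC3, from 1.28 to 4.25 (0.407 and 1.80), and MEGF6, from 1.21 to 4.23 (0.512 and 5.15). S100P, a calcium-binding protein of many carcinomas, rose from 40.6 to 91.8 FPKM at 24 h, and at 48 h the DMSO library stood higher, at 151 and 117.

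Genes of the amino acid response lay above 0 as a set without any past 2-fold. Of 32 tested ATF4 and amino acid response genes 28 lay above 0 at 24 h, beside 57.9% of all tested genes. By 1.5-fold 4 rose and none fell, and the median was 0.40 (0.35 to 0.58 over the settings tried). MTHFD2, a folate enzyme of mitochondria, had 30.1 FPKM with DMSO and 55.4 with melatonin, ATF4, the factor itself, 104 and 167, and PCK2, the mitochondrial PEP carboxykinase, 91.5 and 143. At 48 h the median was -0.37, with MTHFD2 at 64.3 and 53.2 and ATF4 at 240 and 179 FPKM, the DMSO library then being the higher, while PCK2 stood at 55.7 and 85.5. The chaperones of the endoplasmic reticulum had none of 25 past 1.5-fold at 24 h and a median of -0.04.

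Genes of proliferation stood close to their DMSO levels at 24 h. None of 44 tested DNA replication genes and none of 40 mitosis genes passed 1.5-fold, with medians of 0.05 and -0.02, where at 48 h the medians were 0.75 and 0.43. E2F1, the S-phase factor, stood at 31.5 and 50.2 FPKM at 24 h and 17.2 and 70.0 at 48 h, and CDKN1A, the inhibitor p21, at 25.3 and 16.2 and at 60.3 and 26.6. Those were the only 2 of 28 tested genes of cell cycle entry and its inhibitors past 1.5-fold at 24 h. Of 28 p53 targets 3 fell by 1.5-fold, with a median of -0.03.

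Of 38 tested SR proteins, hnRNPs and splicing kinases 1 passed 1.5-fold, HNRNPM, at 73.1 and 46.7 FPKM (55.5 and 35.0 at 48 h). Of the 38, 27 lay below 0, where 57.9% of all tested genes lay above it. Their median was -0.13, which turned to 0.03 in TPM. None of 50 nuclear-encoded respiratory chain genes or 77 ribosomal proteins passed 1.5-fold, with medians of -0.03 and 0.03. The 13 mRNAs of the mitochondrial genome all lay below 0, between -0.58 and -0.24 with a median of -0.40 (-0.22 in TPM), and none passed 1.5-fold. At 48 h their median was 0.19. HSPB1, the small heat shock protein, was the 1 of 18 heat shock genes past 2-fold, from 22.2 to 10.2 FPKM (31.6 and 9.67 at 48 h), with a list median of -0.23 (-0.06 in TPM). Of 21 immediate early genes DUSP6 (11.2 and 21.6 FPKM), EGR1 (13.7 and 25) and DUSP5 (1.81 and 3.64) rose by 1.5-fold and CYR61 (11.2 and 7.09) fell. Of 21 NF-kappaB pathway genes TNFAIP3 alone passed it, at 19 and 12.1 FPKM.

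**Figure D3:**
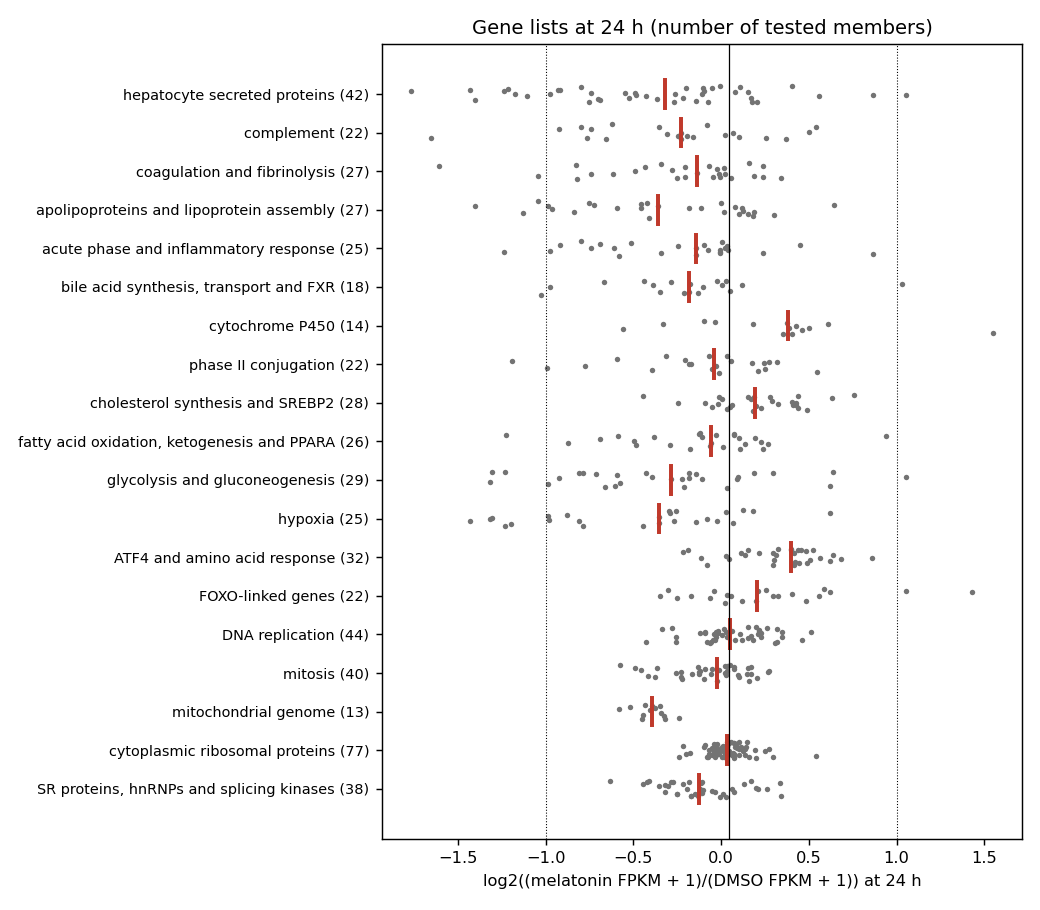
Log2 fold change at 24 h (x axis) of each tested gene in 19 gene lists, 1 point per gene, with the list's median as a red bar, the median of all tested genes (0.04) as a solid line and 2-fold as dotted lines. The bars of hypoxia (-0.35), secreted proteins (-0.32) and the mitochondrial genome (-0.40) lie left of the solid line, and those of ATF4 (0.40) and cytochrome P450 (0.38) right of it.

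Falls outside the lists included genes of several surface and signalling roles. AJUBA, an adaptor of the Hippo pathway, went from 61.4 to 25.9 FPKM (86.0 and 27.8 at 48 h), and ANKRD1, a YAP target, from 12.5 to 5.66 (13.2 and 5.30). UNC93A, a membrane protein, went from 5.09 to 0.639 (2.26 and 0.484), and PDZK1, a scaffold of the HDL receptor, from 9.69 to 3.14 (7.58 and 3.81). The AJUBA and ANKRD1 values in both melatonin libraries lay below those in both DMSO libraries. Of the 46 lower genes 25 were in no list, and of the 20 higher genes 15.

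Some of the extreme values belong to genes with near-identical copies, whose reads may have been split by the authors' counting. BOLA2B, the largest fall, had 456 reads with DMSO and 30 with melatonin, and together with its copy BOLA2 460 and 31, while at 48 h the sum was 308 and 525. CBSL had 254 and 19 reads and its copy CBS 747 and 1225, and their sum had a ratio of 1.12 (1.03 to 1.22) with melatonin, so that the fall was not seen in the sum. MAGED4B with MAGED4 had 86 and 358 reads and SERF1B with SERF1A 28 and 178. Exons of TAGLN share 34.1% of their bases with PCSK7, and those of TUBB1 35.5% with ATP5E. HIST2H2AB rose from 0 to 10 reads and HIGD1C fell from 8 to 0, the 2 genes past 2-fold with a library at 0.

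Set beside the 48 h pair, 41 of the 46 lower genes were lower with melatonin at 48 h too, 21 of them by 2-fold and with a median log2 fold change of -0.82, and none was higher by 2-fold. Of the 20 higher genes 15 were higher at 48 h, 9 of them by 2-fold, and MAGED4B and SERF1B were lower by 2-fold. Of all genes tested at 48 h, 1.03% were higher and 1.36% lower by 2-fold. Below the 48 h filter were 6 of the lower and 2 of the higher genes. With DMSO alone 35 of the 46 lower genes had a lower level at 48 h than at 24 h, 12 of them by 2-fold, among them EPO, PFKFB3, PFKFB4 and SLC2A3. Of all 10539 genes tested between the DMSO libraries, 293 (2.78%) were lower by 2-fold at 48 h. The shares of all tested genes by sign alone were not computed for these comparisons. The counts of 41, 15 and 35 by sign therefore have no such share beside them. The 46 genes were picked partly for a high DMSO value at 24 h, which by itself favours a lower DMSO value at 48 h.

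**Figure D4:**
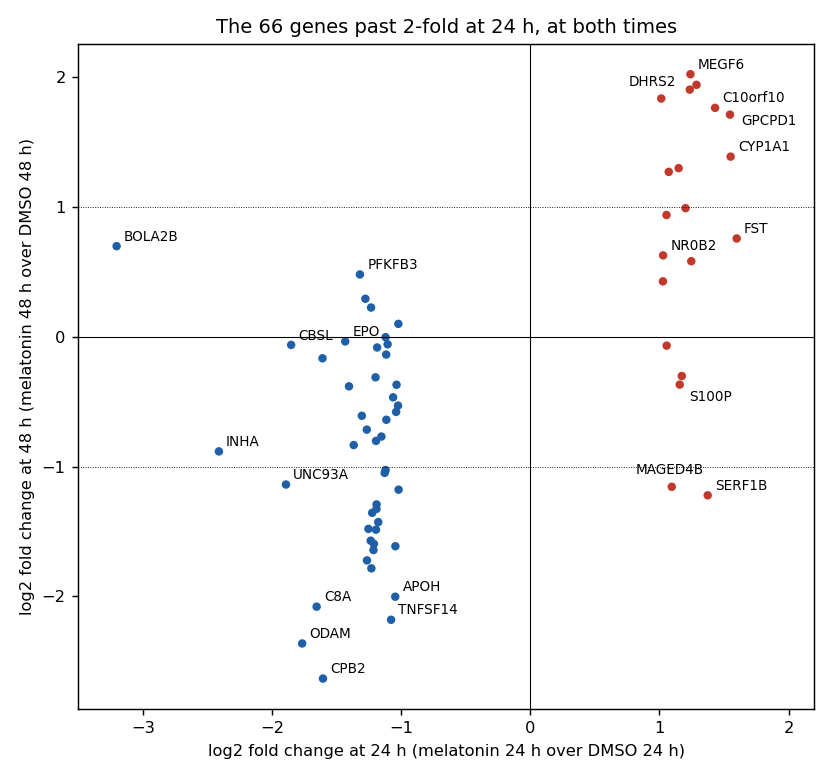
Log2 fold change of melatonin over DMSO at 24 h (x axis) and at 48 h (y axis) of the 66 genes past 2-fold at 24 h, 1 point per gene and 1 library per condition, with dotted lines at 2-fold at 48 h. CPB2, ODAM, C8A and APOH lie lowest at 48 h with TNFSF14, EPO lies near 0, PFKFB3 lies above it (0.48), and MAGED4B and SERF1B are higher at 24 h and lower at 48 h.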

How the data were processed

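Polyadenylated RNA of HepG2 cells was sequenced as paired-end reads, 1 library per condition. The authors deposited FPKM per Ensembl gene on hg38 with the gene length in bp. For the mapper, the methods name MapSplice followed by Cufflinks, and the submitters' processing notes name Bowtie2 2.0.6, TopHat2 2.0.9, Cufflinks 2.1.1 and Cuffdiff 2.1.1. No replicates were pooled. Multiplying FPKM by length gave whole multiples of a per-library step for 100% of values (tolerance 0.01 read), from which the reads per gene were taken. At 24 h the authors' denominators came to 0.849 (DMSO) and 0.888 (melatonin) times the reads on genes, and how they were set is not given in the sources used here.

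Log2 fold changes were log2((melatonin + 1)/(DMSO + 1)) of the FPKM, and genes were called at 2-fold. Intervals (95%) are exact conditional binomial ones of the reads, scaled by the library sizes. They and the floor of 3 reads (0.163 FPKM with DMSO and 0.148 with melatonin for a gene of 1 kb) cover counting error only. With 1 library per group no test across replicates was possible, and no p-value is given. An exact binomial test of the reads, adjusted for the number of genes, was run only as 1 of the alternative settings. It covers counting error only. Lists were described by counts and medians beside all tested genes. The comparison, its members and the 41 gene lists, written by hand from textbook knowledge, were chosen with earlier results of these data known. Named were the 15 largest rises and 15 largest falls past 2-fold with at least 50 reads, in each list the members past 2-fold and up to 4 others with the largest change, its most highly expressed members, and MTNR1A, MTNR1B and CYP1A2. ADH6, AJUBA, ANKRD1, CYP7A1, FGG, HIF1A, HIGD1C, HIST2H2AB, LYZ, MTTP, TAGLN, TNFSF14 and VEGFA were chosen after their values were seen. Shared exon bases came from GENCODE 44, and promoter windows, matched by symbol or synonym, from RefSeq. On simulated libraries of the 24 h pair, with 10480 genes, 192 of 200 genes changed 4-fold were called and 0 of 10161 unchanged genes. The simulated libraries differed by counting error only, and the changed genes were drawn from those with a mean of at least 50 reads. The simulation therefore checks the calculation and cannot show how often cultures that differ would give a call. Python 3.11, numpy 2.4.6, pandas 2.3.3, scipy 1.17.1 and matplotlib 3.10.9 were used.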

Additional observations from a re-analysis of the deposited data

Results flagged for a closer look

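Values that differed in sign between 24 h and 48 h are given first, and the difference between the times was not tested, since each condition has 1 library. MAGED4B had a log2 fold change of 1.09 at 24 h and -1.15 at 48 h, and SERF1B had 1.37 and -1.22. Both have a near-identical copy, and the summed reads of MAGED4B and MAGED4 were 86 (DMSO) and 358 (melatonin) at 24 h and 231 and 61 at 48 h. The ATF4 and amino acid response genes had a median of 0.40 at 24 h and -0.37 at 48 h. The mRNAs of the mitochondrial genome had a median of -0.40 at 24 h and 0.19 at 48 h. Their summed level was 206600 and 160489 FPKM at 24 h with DMSO and melatonin and 88092 and 104303 at 48 h, so the DMSO library at 24 h was the highest of the 4.

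Outside the protein-coding genes, 954 other genes had enough reads to be tested (at least 50 in either library), of which 5 rose and 28 fell by 2-fold at 24 h. NEAT1, the long non-coding RNA on which nuclear paraspeckles form, had a log2 fold change of 1.44, from 9.89 FPKM in the DMSO to 28.5 in the melatonin library at 24 h, beside 13.5 and 62.8 at 48 h. The lincRNA AC005224.4 had a log2 fold change of 1.42, with 31.3 and 85.2 FPKM at 24 h and 7.31 and 40.9 at 48 h. The processed pseudogenes LSM12P1 and AC104066.1 had log2 fold changes of 1.28 and 1.13, and the lincRNA AC019069.1 one of 1.00. All 5 were also higher with melatonin at 48 h, with log2 fold changes between 0.84 for AC019069.1 and 2.33 for AC005224.4. The 28 that fell had a median of 9.26 FPKM in the DMSO and 3.34 in the melatonin library at 24 h, and 24 of them were also lower with melatonin at 48 h, 11 by 2-fold, with a median log2 fold change of -0.83. They were 9 antisense RNAs, 6 lincRNAs, 9 pseudogenes and 4 of other kinds. The shares of all 954 genes that were higher or lower at 48 h were not computed, so the 48 h counts of the 5 and the 28 have no such share beside them. The largest fall, that of the transcribed pseudogene AC004057.1, went from 47.4 to 9.11 FPKM at 24 h, while at 48 h it stood at 11.4 and 22.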

How the results depend on the processing

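The counts of 20 higher and 46 lower genes became 65 and 144 with a pseudocount of 0.1, 85 and 71 after rescaling to TPM, 201 and 287 at a 1.5-fold threshold, and 46 and 153 with all biotypes of 200 bp or more. A minimum of 5 FPKM left 10 higher genes and a minimum of 1 FPKM in both libraries 12, with the counts of lower genes within 1.5 times. The other 8 settings left both counts within 1.5 times, with 17 to 22 higher and 35 to 62 lower genes. Among them was an exact binomial test of the reads added to the threshold, which left 20 and 46 and covers counting error only. Named genes were checked only with a pseudocount of 0.1, which cannot turn a sign, with TPM, and with library size as the sum of reads. None past 2-fold changed sign in these, but the size of the change often moved. In 331 of these checks the log2 fold change left the gene's own counting interval, and in 446 it stayed inside. List medians were checked under some of the settings only, and none beyond 0.20 in size changed sign there. TPM turned the medians of several lists near 0, such as acute-phase genes and splicing factors. Chosen after seeing the data were equal totals over nuclear protein-coding genes (22 higher and 51 lower), leaving out genes with near-identical copies or shared exons (18 and 41), and, for the lists, leaving out members past 2-fold or held by another list. The hypoxia median ranged from -0.40 to -0.20, that of secreted proteins from -0.36 to -0.14, that of complement from -0.27 to -0.04, that of apolipoproteins from -0.41 to -0.15, that of glycolysis from -0.57 to -0.10 and that of ATF4 genes from 0.35 to 0.58. No paired analysis was possible because each condition has 1 library. Melatonin and culture-to-culture variation cannot be told apart at 24 h, and for the genes highest in the DMSO 24 h library, such as EPO and SLC2A3, a difference between the DMSO cultures cannot be told apart from melatonin either. Genes under 50 reads rest on counts too low to rank.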
